A study of Mus musculus with 12 samples.

Results

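The genes described here are 31 brain messenger RNAs that have been reported as bound by FMRP, the RNA-binding protein whose loss causes fragile X syndrome. They were taken by name from the count table, where each of the 31 symbols matched exactly 1 of 52550 features, and all 31 passed the filter on low counts that left 14990 genes for testing. The smallest count of any member in any library was 88, for Shank3 in knockout library 16. The members are given by name as transcripts reported to bind FMRP in brain, and binding itself was not measured in these libraries.

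FMRP associates with messenger RNAs along much of their coding sequence and is known as a brake on their translation. Many of the transcripts it binds in brain encode large proteins of the synapse, the cytoskeleton and the ubiquitin system, and most are known best from neurons. Astrocytes also contain FMRP, and the study asked how its absence changes the ribosome-bound RNA of cortical astroglia.

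The RNA came from somatosensory cortex of mice at postnatal day 40 on an FVB/C57 strain background. Both groups carried the Aldh1l1-TRAP transgene, an eGFP-tagged ribosomal protein under the promoter of the astrocyte gene Aldh1l1, and RNA was recovered with anti-eGFP beads (translating ribosome affinity purification). The knockout mice were Fmr1-/y and the wild-type mice Fmr1+/y, and the labels name no restriction of the knockout to astrocytes, so other cells of the cortex lacked Fmr1 as well. There were 3 knockout libraries (numbers 14, 16 and 18) and 3 wild-type libraries (numbers 13, 15 and 17), each deposited as 2 entries that were summed. The labels do not say whether each library came from a separate animal or from pooled animals, so p-values measure only the spread between these libraries. Below, values of a gene are listed in the order of libraries 14, 16 and 18 for Fmr1-/y and 13, 15 and 17 for Fmr1+/y.

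Levels are given as CPM, counts scaled to library size and composition (TMM). Fmr1 itself matched the labels, at 4.32, 4.22 and 1.32 CPM in Fmr1-/y against 31.6, 38.4 and 37.0 CPM in Fmr1+/y (log2 fold change -3.53; edgeR quasi-likelihood adjusted p = 0.29983, the smallest over all genes). Total counts ran from 10953958 to 22397202 per library. Features that collect ribosomal RNA reads (CT010467.1, Lars2 and AY036118) made up 35.6% of knockout library 14, 45.1% of knockout library 16 and at most 7.45% of any other library. Each library title also holds a hyphenated number code that starts with 5 in knockout libraries 14 and 16 and wild-type library 13 and with 6 in the other libraries. The labels do not say what the code stands for. The 24 astrocyte markers summed to 40662 to 54257 CPM in the knockout and 41029.5 to 54499 CPM in the wild type. The 24 neuron markers were detected as well and summed to 2571 to 3643 CPM in the knockout and 1841 to 3437 CPM in the wild type. The 13 microglia markers summed to 59.0 to 66.8 CPM in the knockout and 65.2 to 82.4 CPM in the wild type.

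None of the 31 reported FMRP-bound transcripts passed the test between Fmr1 knockout and wild type. In edgeR's quasi-likelihood test 0 of 31 had an adjusted p under 0.05 over all 14990 genes, where 0% of all genes did. At an unadjusted p under 0.05 there were also 0 of 31, against 1.77% of all genes (0.734% higher and 1.03% lower in the knockout). DESeq2, edgeR's exact test and limma voom gave 0 of 31 by either measure too. The smallest unadjusted p of a member was 0.201, for Ubr4, and the lowest adjusted p was 0.999984. Knockout and wild-type libraries overlapped in all 31 members, while their ranges did not overlap in 6.2% of all genes (2.95% with the knockout higher and 3.25% with it lower).

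The members' log2 fold changes (knockout over wild type) lay between -0.18 for Nf1 and 0.52 for Dync1h1, with a median of 0.078, against -0.0019 over all genes. Of the 31, 23 were above 0 and 8 below, where 49.6% of all genes were above 0. This count rested on single libraries: without knockout library 18 it was 4 above and 27 below (median -0.15), and without wild-type library 13 it was 7 above and 24 below (median -0.16). For 29 of 31 members the difference between the group means on the log2 CPM scale was smaller than the within-group SD between libraries, the exceptions being Nf1 and Prrc2a. The corresponding share over all genes was 80.5%. The 95% interval of the fold change lay inside a 2-fold change in either direction for 24 of 31 members and inside 1.5-fold for 9, and for the other members a change of that size lay within the interval.

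**Figure D1:**
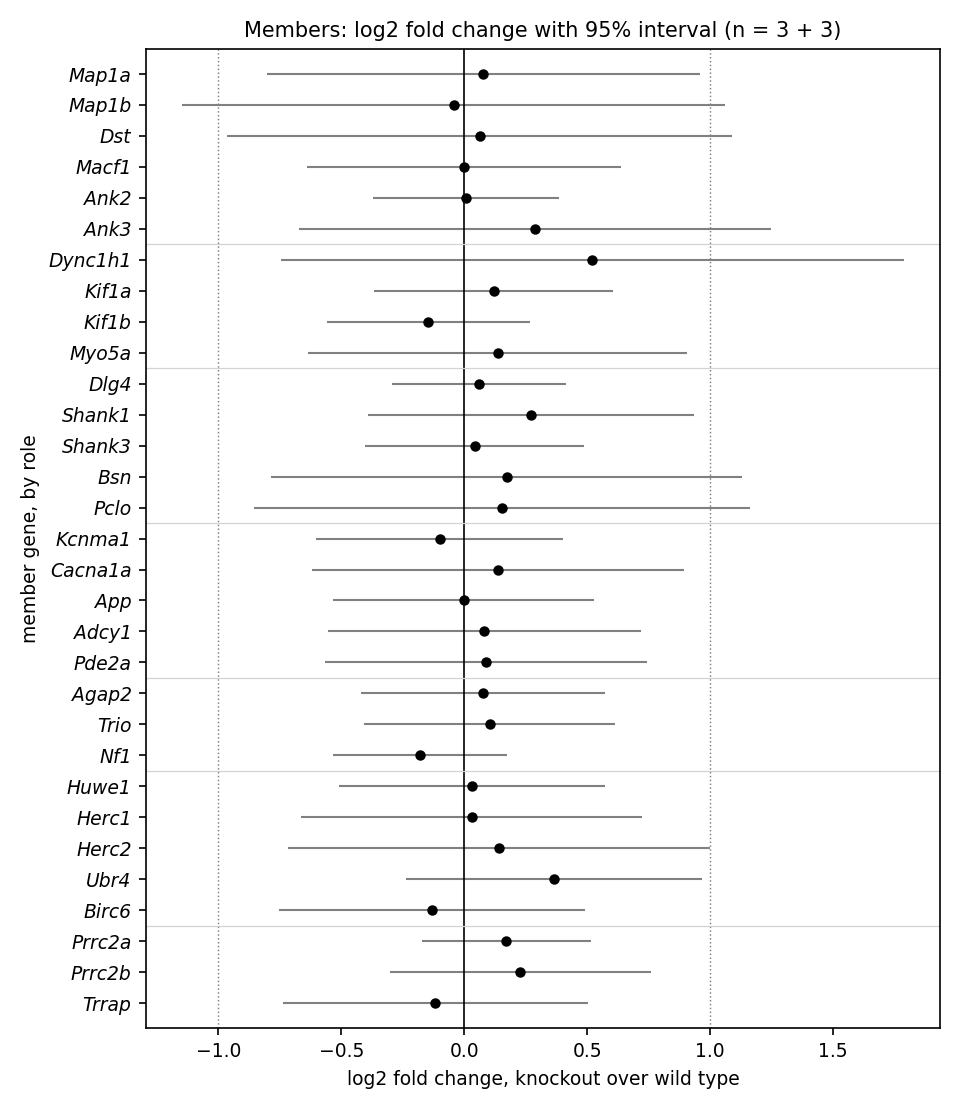
Log2 fold change of each of the 31 members (knockout over wild type, 3 libraries each) from edgeR's quasi-likelihood fit, with 95% intervals as bars, grouped by role from cytoskeleton (top) to nuclear and RNA-associated proteins (bottom). Dotted lines mark a 2-fold change; every interval includes 0, and those of 24 members stay between the dotted lines.

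The members shared an order of libraries that crossed the genotypes. Knockout library 18 or wild-type library 17 held the highest value for 30 of the 31 members, and wild-type library 13 or knockout library 16 held the lowest value for the same 30. Over all genes tested, 24.4% had both. Of the 24 neuron markers 83.3% had both, of the 12 oligodendrocyte markers 100% and of the 24 astrocyte markers 4.17%. Relative to the wild-type mean, the members' median log2 level was -0.070, -0.23 and 0.51 in Fmr1-/y against -0.45, 0.094 and 0.39 in Fmr1+/y. Both groups therefore held a low and a high library. The median within-group SD of a member was 0.43 on the log2 scale, against 0.28 over all genes.

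Neuron markers ranked the libraries as the members did. Their medians were 0.025, -0.18 and 0.48 in Fmr1-/y against -0.61, 0.23 and 0.38 in Fmr1+/y, which is the same order of the 6 libraries as that of the members' medians. The 12 oligodendrocyte markers were low and high in nearly the same libraries, with sums of 658 to 1511 CPM in the knockout and 724 to 1282 CPM in the wild type. Astrocyte markers ran the other way, with medians of 0.28 and 0.24 in knockout library 16 and wild-type library 13 and -0.31 and -0.36 in knockout library 18 and wild-type library 17. In such pull-down RNA, cell number, RNA per cell and the amount of other cells' RNA carried through the pull-down cannot be told apart. The part of the neuron markers' source cells in the members' values was not tested. With the neuron marker level as a covariate the members' median log2 fold change was -0.017, with 14 above 0 and 17 below, and 0 of 31 fell below an unadjusted p of 0.05 (edgeR, quasi-likelihood; 3.41% of all genes).

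**Figure D2:**
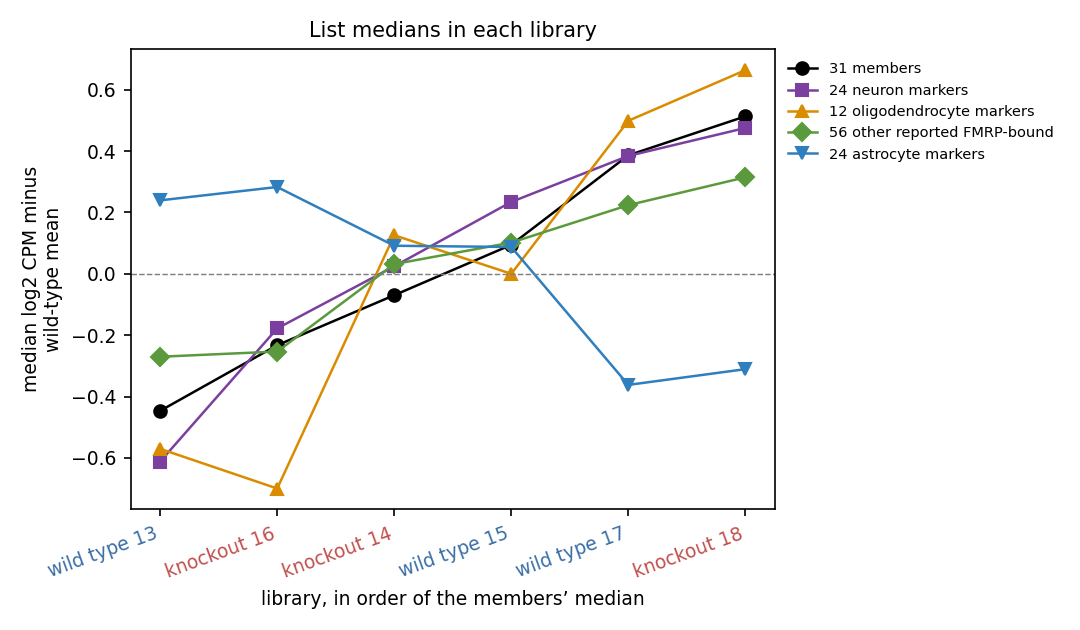
Median log2 CPM minus the wild-type mean (vertical axis) of the 31 members and 4 gene lists in each library (horizontal axis, knockout names in red and wild-type names in blue, ordered by the members' median). Lines only join the points of a list: members and neuron markers run from wild-type library 13 to knockout library 18, and astrocyte markers are lowest in wild-type library 17 and knockout library 18.

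The 3 libraries whose title code starts with 6 had the 3 highest member medians. With the code as a covariate the median log2 fold change was 0.29, with 28 members above 0. In that fit 9 members had an unadjusted p under 0.05, all higher in the knockout, against 4.73% of all genes (3.05% higher). They were Ank3 (0.66), Dync1h1 (0.76), Pclo, Bsn, Shank1, Myo5a, Ubr4, Map1a and Prrc2b (0.39), and 0 passed adjustment in edgeR's quasi-likelihood test (lowest adjusted p = 0.971). Among libraries coded 5 the members' median difference was 0.22 (2 knockout against 1 wild type) and among those coded 6 it was 0.29 (1 against 2), with 24 of 31 higher under both codes against 24.1% of all genes. The neuron markers were higher too, by medians of 0.53 and 0.20, and 17 of 24 were higher under both codes. Of the oligodendrocyte markers 11 of 12 were higher under both codes, and of the astrocyte markers 0 of 24 were higher and 14 lower under both. The part of these cell types in the members' within-code differences was not tested. With the code and the neuron marker level together as covariates, a fit added after the values were seen, 3 of 31 members had an unadjusted p under 0.05 (4.9% of all genes), namely Dync1h1 (1.06), Prrc2b (0.60) and Kcnma1 (-0.47). That fit has few residual degrees of freedom. With the share of the ribosomal RNA features as the covariate, the median was 0.43. There 4 members fell below an unadjusted p of 0.05 (5.56% of all genes, 1.68% higher), namely Ubr4, Dync1h1, Cacna1a and Prrc2b, all higher. None of them passed adjustment (0.00667% of all genes did).

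**Figure D3:**
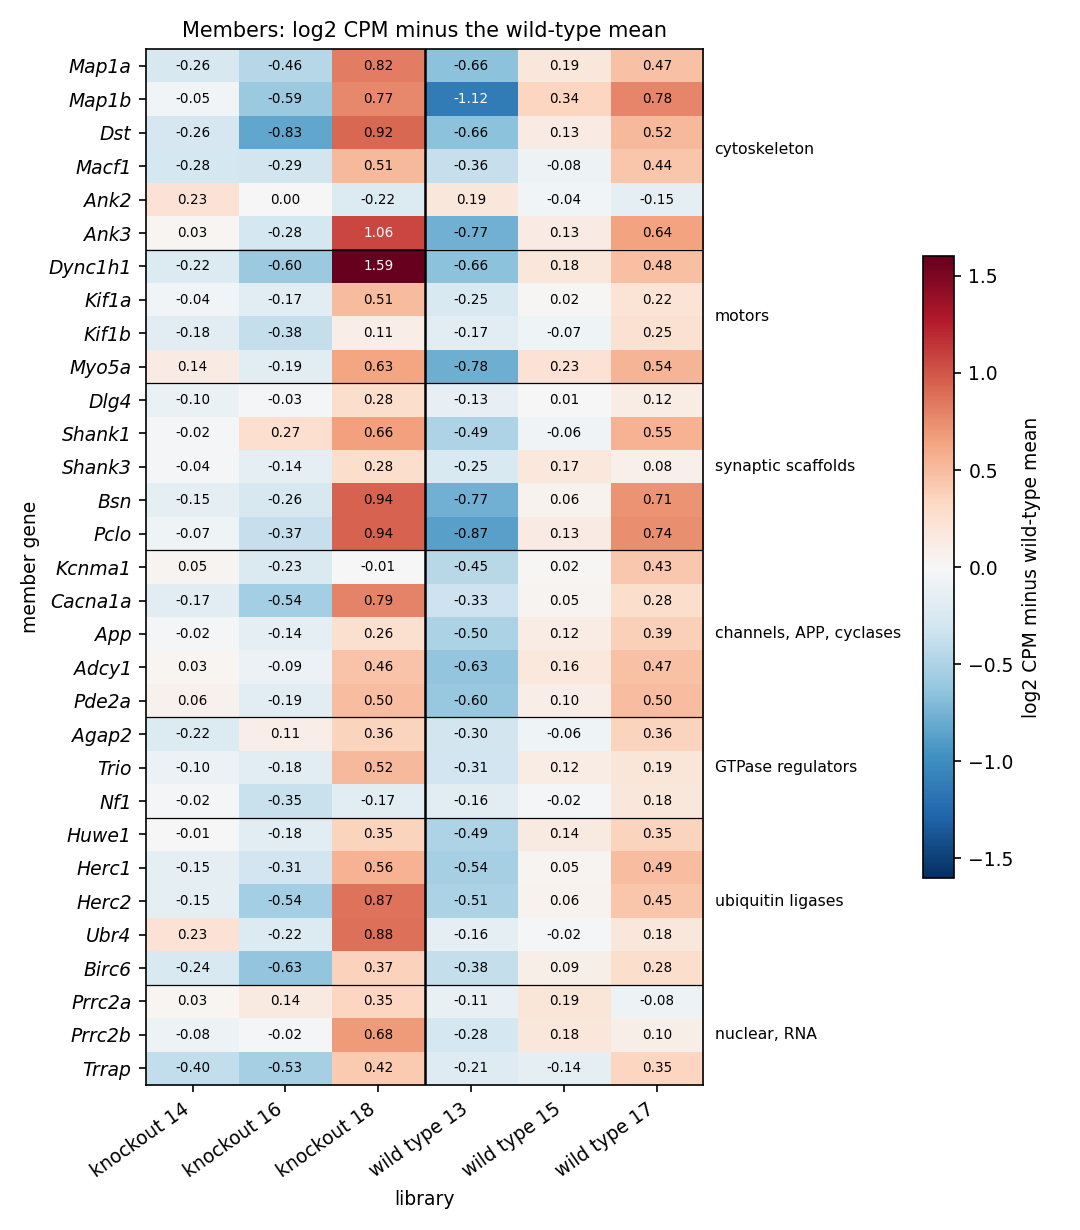
Heat map of the 31 members (rows, grouped by role) in the 6 libraries (columns, knockout left and wild type right of the black line); each cell is the log2 CPM minus the gene's wild-type mean, from blue (lower) to red (higher). Knockout library 18 and wild-type library 17 are red and wild-type library 13 is blue for most rows, and the Ank2 row runs the other way.

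Among the cytoskeletal members, Map1a and Map1b encode microtubule-associated proteins of axons and dendrites, and Map1b is among the longest-studied FMRP targets. Map1a measured 162, 142 and 343 CPM in Fmr1-/y against 123, 221 and 269.7 CPM in Fmr1+/y. Map1b measured 203, 139 and 358 CPM and 96.0, 265 and 360.4 CPM in the same order. Both were high in knockout library 18 and wild-type library 17 and low in wild-type library 13, and the groups overlapped. The log2 fold changes were 0.078 (SE 0.38) and -0.043 (SE 0.48), with Map1b turning to 0.045 as a plain difference of mean log2 CPM, and the highest Map1b value was 3.76 times the lowest.

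Dst and Macf1 encode giant spectraplakins that link actin to microtubules. Dst stood at 55.1, 37.3 and 125 CPM in Fmr1-/y against 41.9, 72.6 and 95.3 CPM in Fmr1+/y. For Macf1 the values were 59.3, 58.9 and 103 CPM and 55.8, 68.0 and 97.8 CPM. The log2 fold changes of 0.063 (SE 0.45) and -0.0016 (SE 0.28) were far smaller than the spread within either genotype.

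Ankyrins anchor membrane proteins to the spectrin skeleton, and their genes Ank2 and Ank3 (ankyrin-B and ankyrin-G) gave opposite library patterns. Ank3, whose protein organises the axon initial segment, measured 66.3, 53.7 and 136 CPM in Fmr1-/y against 38.2, 71.2 and 101 CPM in Fmr1+/y. Its log2 fold change was 0.29 (SE 0.42, 95% interval -0.67 to 1.25). Ank2 measured 1058, 906 and 776 CPM and 1029, 881 and 816 CPM, highest in knockout library 14 and wild-type library 13 and lowest in knockout library 18. It was the 1 member lower in knockout library 18 and wild-type library 17 than in the other libraries, and the astrocyte marker medians were lowest in those libraries too. The Ank2 log2 fold change was 0.0072 (SE 0.16).

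Of the motor proteins, Dync1h1, the heavy chain of cytoplasmic dynein, had the largest fold change of the 31 members and also the widest spread. It measured 214, 165 and 754 CPM in Fmr1-/y against 158, 283 and 350.4 CPM in Fmr1+/y. Knockout library 18 alone stood above the wild-type range, at 2.15 times wild-type library 17, whose neuron markers were at nearly the same level. The log2 fold change of 0.52 (SE 0.55, 95% interval -0.75 to 1.79) turned to -0.47 without knockout library 18. Myo5a, the gene of the actin motor myosin Va, ranged from 91.9 CPM in wild-type library 13 to 244 CPM in knockout library 18 (log2 fold change 0.14, SE 0.34).

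Kif1a and Kif1b encode related kinesin motors, which carry synaptic vesicle precursors and, for Kif1b, mitochondria. Kif1a measured 395, 363 and 581 CPM in Fmr1-/y against 344, 414 and 476 CPM in Fmr1+/y. Kif1b measured 378, 327 and 462 CPM and 379, 407 and 507 CPM. The groups overlapped for both genes, with log2 fold changes of 0.12 (SE 0.21) and -0.15 (SE 0.18, 95% interval -0.56 to 0.27).

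The ratio of the kinesin pair did not overlap between the genotypes, although each gene alone did, and the difference did not pass adjustment. The log2 ratio of Kif1a to Kif1b was 0.063, 0.15 and 0.33 in Fmr1-/y against -0.14, 0.026 and -0.091 in Fmr1+/y. The means differed by 0.25 log2 units with SDs of 0.14 and 0.085 (n = 3 each). The two-sided exact permutation p of 0.1 is the smallest that 3 libraries against 3 can give, and it became 0.8 after Benjamini-Hochberg adjustment over the 8 paralog pairs compared. The other 7 pairs overlapped, with differences between -0.27 (Ank2 over Ank3) and 0.27 (Shank1 over Shank3).

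**Figure D4:**
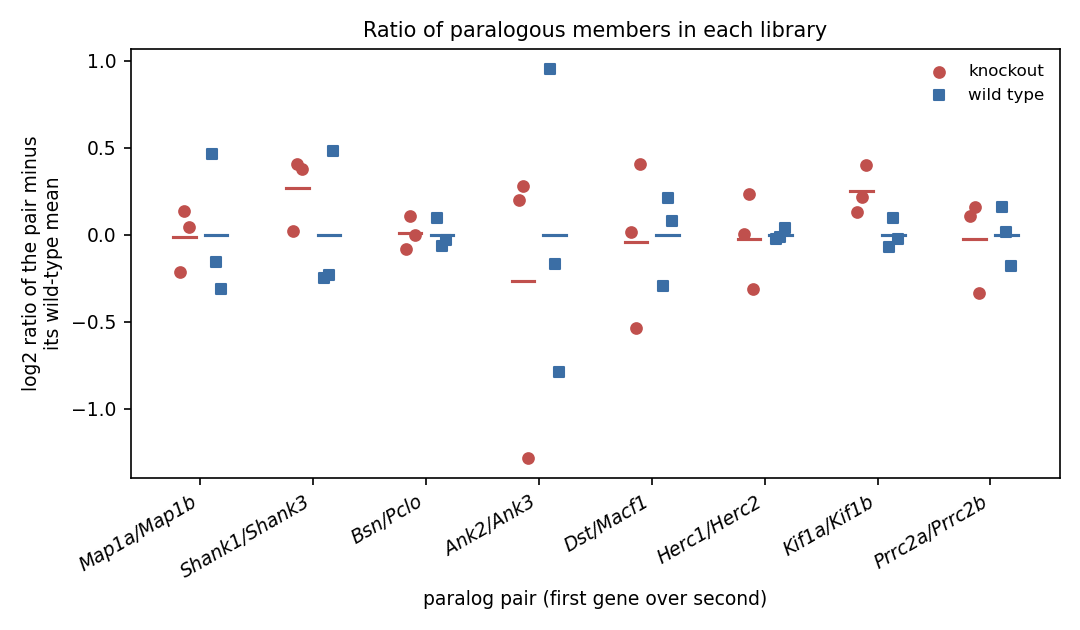
Log2 ratio of the first to the second gene of 8 paralog pairs in each library, minus the wild-type mean of that pair (red circles knockout, blue squares wild type, bars group means, n = 3 each). Kif1a/Kif1b is the pair whose knockout points all lie above its wild-type points, and Ank2/Ank3 spreads most.

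Sequences before a listed start of this kinesin pair are shown because its ratio was the 1 that did not overlap. Those of the scaffold genes Bsn and Pclo are shown because that pair kept a nearly constant ratio in all libraries. Each run holds the 250 bases before the first listed start, 5′ to 3′ on the strand of the gene, from RefSeq on GRCm38.p6, and capitals mark the GC box GGGCGG on either strand. Part of each window, and most of that of Kif1a, lies inside the RefSeq gene span. That span ends at 93102039 for Kif1a, 149307773 for Kif1b and 108190419 for Bsn, and it starts at 14514906 for Pclo. The windows are chr1:93101875-93102124 (minus strand), chr4:149307734-149307983 (minus strand), chr9:108190384-108190633 (minus strand) and chr5:14514668-14514917 (plus strand).
Kif1a: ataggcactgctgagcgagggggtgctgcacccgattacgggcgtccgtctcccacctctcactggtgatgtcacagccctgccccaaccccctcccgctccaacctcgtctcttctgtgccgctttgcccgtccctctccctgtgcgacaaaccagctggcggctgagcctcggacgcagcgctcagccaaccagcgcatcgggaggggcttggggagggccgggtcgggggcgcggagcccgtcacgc
Kif1b: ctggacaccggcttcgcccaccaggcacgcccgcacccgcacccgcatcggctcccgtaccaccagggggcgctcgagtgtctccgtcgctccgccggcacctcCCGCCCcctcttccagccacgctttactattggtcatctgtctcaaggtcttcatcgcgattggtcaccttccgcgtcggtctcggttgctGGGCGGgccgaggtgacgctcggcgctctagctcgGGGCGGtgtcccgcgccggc
Bsn: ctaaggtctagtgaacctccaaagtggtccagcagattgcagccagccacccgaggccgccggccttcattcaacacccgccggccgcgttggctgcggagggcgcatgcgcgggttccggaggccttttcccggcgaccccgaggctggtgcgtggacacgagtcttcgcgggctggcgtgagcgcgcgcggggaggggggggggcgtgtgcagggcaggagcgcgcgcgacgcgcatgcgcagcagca
Pclo: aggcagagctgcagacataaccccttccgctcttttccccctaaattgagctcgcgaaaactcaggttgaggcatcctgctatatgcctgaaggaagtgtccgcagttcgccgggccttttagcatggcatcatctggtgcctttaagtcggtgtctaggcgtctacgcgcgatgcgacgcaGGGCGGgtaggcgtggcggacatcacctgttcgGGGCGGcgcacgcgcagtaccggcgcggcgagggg
The Kif1b window shown holds 3 GC boxes and the Pclo window 2, while the Kif1a and Bsn windows shown hold 0. A second Kif1b window, chr4:149307699-149307948, holds 4, and a second Kif1a window holds 0. Windows were found for 28 of the 31 members. Of their 41 windows 25 held GGGCGG, which is 61.0%, against 32.7% of all 32851 windows in the table. All windows were taken without the filter on low counts, which every member passed, so the 2 sets are unlike. Shares over the windows of the genes tested were not computed. The members' windows had a median GC content of 64.4% against 52.4% over all windows. A cyclic AMP response element, TGACGTCA, was in 0 of 41 windows against 1.55% of all, and TATAAA on either strand in 2 of 41 against 12.4%. These are matches of letters only, and windows of 1 gene can overlap.

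The synaptic scaffolds had 5 of 5 log2 fold changes above 0, where 49.6% of all genes were above 0, and 0 of 5 passed the test. At their lowest in the alternative fits, Dlg4, Shank3, Bsn and Pclo stood at -0.068, -0.097, -0.33 and -0.35, and Shank1 at 0.057. Bsn and Pclo encode bassoon and piccolo, the large scaffolds of the presynaptic active zone. Bsn measured 37.3, 34.6 and 79.4 CPM in Fmr1-/y against 24.2, 43.1 and 67.9 CPM in Fmr1+/y. Pclo measured 28.4, 23.1 and 57.3 CPM and 16.3, 32.5 and 49.9 CPM. Both followed the order of the neuron markers at the extremes, and the log2 ratio of Bsn to Pclo stayed between 0.39 and 0.58 in all 6 libraries while the highest value was 3.28 times the lowest for Bsn and 3.52 times for Pclo. Their log2 fold changes were 0.17 (SE 0.42) and 0.15 (SE 0.44).

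On the postsynaptic side, Shank1 and Shank3 encode scaffolds that tie glutamate receptor complexes to actin, and Dlg4 encodes PSD-95, their partner. Shank1 measured 17.3, 21.1 and 27.7 CPM in Fmr1-/y against 12.4, 16.8 and 25.8 CPM in Fmr1+/y (log2 fold change 0.27, SE 0.29, 95% interval -0.39 to 0.93). Shank3 measured 13.3, 12.4 and 16.6 CPM and 11.5, 15.4 and 14.4 CPM (log2 fold change 0.042, SE 0.19). Wild-type library 13 was the lowest of the 6 for both. Dlg4 varied least of the scaffolds, from 159.8 to 212 CPM, with group values of 182 ± 26.8 against 175 ± 14.9 CPM (mean ± SD, n = 3 each).

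Channel, membrane protein and cyclic nucleotide genes had 3 log2 fold changes above 0 and 2 below. Cacna1a, the pore subunit of the P/Q-type calcium channel, ranged from 16.2 CPM in knockout library 16 to 40.8 CPM in knockout library 18, both of the same genotype. Kcnma1, the calcium-activated BK potassium channel, stood at 61.7 ± 6.24 against 66.2 ± 19.7 CPM (mean ± SD, n = 3 each). App, the amyloid precursor protein gene, stood at 211 ± 30.3 against 211 ± 62.2 CPM with a log2 fold change of -0.0017. Adcy1, a calcium-stimulated adenylyl cyclase, stood at 194 ± 40.5 against 183 ± 65.0 CPM. Pde2a, a phosphodiesterase that cGMP stimulates, stood at 81.7 ± 20.1 against 77.0 ± 27.8 CPM. Adcy1 and Pde2a had nearly equal values in knockout library 18 and wild-type library 17 (239.7 against 241 CPM for Adcy1), the libraries with the highest neuron marker levels.

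The GTPase regulators included the member with the lowest fold change. Nf1, the gene of neurofibromin, which switches off Ras, measured 159.8, 127 and 144 CPM in Fmr1-/y against 145, 159.9 and 184 CPM in Fmr1+/y. Its log2 fold change of -0.18 (SE 0.15, 95% interval -0.53 to 0.17; exact permutation p = 0.2) kept its sign in all 18 alternative fits, which reuse the same libraries. Across the fits it ran from -0.43 to -0.085. In contrast to most members, Nf1 in knockout library 18 was no higher than in wild-type library 13. Trio, a guanine nucleotide exchange factor for Rac, stood at 66.7 ± 18.8 against 62.3 ± 10.9 CPM, and Agap2, an Arf GTPase-activating protein, at 179.7 ± 35.8 against 171 ± 40.6 CPM (mean ± SD, n = 3 each).

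Ubiquitin ligases had 4 log2 fold changes above 0 and 1 below. Ubr4, which recognises destabilising N-terminal residues of proteins, had the smallest p of all members. It measured 99.2, 72.4 and 155 CPM in Fmr1-/y against 75.6, 83.2 and 95.9 CPM in Fmr1+/y. Knockout libraries 14 and 18 were above the wild-type range and knockout library 16 was below it (log2 fold change 0.36, SE 0.26, 95% interval -0.24 to 0.97). Without knockout library 18 the log2 fold change of Ubr4 was 0.017. The authors' deposited table, which lists the 12 entries in separate columns, gives Ubr4 a p of 0.0516 and an adjusted p of 0.731, the lowest of the 31 members there. In it 85 of 14843 features had an adjusted p under 0.05, and 6.92% had an unadjusted p under 0.05. Of the members 0 of 31 did by either measure.

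Herc1 and Herc2, giant ligases with HECT domains, were both high in knockout library 18 and wild-type library 17. Herc1 measured 82.8, 74.2 and 135 CPM in Fmr1-/y against 63.3, 94.9 and 129 CPM in Fmr1+/y. For Herc2 the values were 90.0, 68.7 and 183 CPM and 70.2, 104 and 137 CPM. Their log2 fold changes were 0.030 (SE 0.30) and 0.14 (SE 0.37). Huwe1, another HECT ligase, stood at 117 ± 22.7 against 115 ± 32.2 CPM, and Birc6, a ubiquitin-conjugating inhibitor of apoptosis, at 90.3 ± 32.2 against 99.1 ± 22.2 CPM (mean ± SD, n = 3 each), where Birc6 had a log2 fold change of -0.13.

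Of the nuclear and RNA-associated members, Prrc2a, a reader of methylated adenosine in RNA, was the steadiest. It measured 57.6, 62.1 and 71.7 CPM in Fmr1-/y against 52.2, 64.6 and 53.3 CPM in Fmr1+/y. Its paralog Prrc2b measured 68.4, 71.0 and 116 CPM and 59.6, 81.6 and 77.3 CPM. The log2 fold changes were 0.17 (SE 0.15, 95% interval -0.17 to 0.51) and 0.23 (SE 0.23, 95% interval -0.30 to 0.76). Prrc2a kept its sign in all 18 alternative fits, as did Ubr4, Shank1 and Nf1. The lowest log2 fold changes there were 0.077 for Prrc2a, 0.017 for Ubr4 and 0.057 for Shank1, and the highest for Nf1 was -0.085. All these fits reuse the same 6 libraries or a part of them. The share of all genes that kept their sign was not computed. Trrap, a scaffold of histone acetyltransferase complexes, stood at 41.1 ± 15.7 against 44.9 ± 9.89 CPM (mean ± SD, n = 3 each).

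The gene bodies of the members, other than Prrc2a, Agap2 and Map1a, were longer than the median of the genes tested. Their RefSeq gene spans on GRCm38.p6 had a median of 131 kb (from 16.2 kb for Prrc2a to 713 kb for Kcnma1), against 23.8 kb over the 14018 tested genes with a matching symbol. Of the members 58.1% span at least 100 kb, against 15.1% of those genes. Genes of at least 100 kb had a median log2 fold change of -0.029 (n = 2114), and relative to the wild-type mean their medians were -0.14 in wild-type library 13 and 0.11 in wild-type library 17. The member medians of those libraries were -0.45 and 0.39. Transcript length was not analysed here, so levels of different genes were not compared.

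Another 56 transcripts reported as FMRP-bound in brain were read from the same fit, as listed from background knowledge. In edgeR's quasi-likelihood test 0 of 56 passed over all genes, and 2 had an unadjusted p under 0.05, both higher in the knockout (1.77% of all genes in either direction). The median log2 fold change was 0.027, with 32 above 0 and 24 below. The smaller p was that of Arc, the activity-induced gene of a capsid-like synaptic protein. Arc measured 77.4, 100.4 and 63.9 CPM in Fmr1-/y against 39.2, 23.7 and 50.0 CPM in Fmr1+/y (log2 fold change 1.10, SE 0.28). Every knockout library was above every wild-type library for Arc, and 0 of the 31 members had such a separation.

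Other genes of that list named by smallest p had smaller differences than Arc. Gabbr2, a GABA-B receptor subunit, stood at 129.9 ± 12.9 against 108 ± 12.3 CPM (mean ± SD, n = 3 each; log2 fold change 0.27). On the lower side were the neurotrophin receptor gene Ntrk3 at 41.2 ± 7.44 against 50.3 ± 12.3 CPM and the NMDA receptor gene Grin2b at 90.8 ± 19.6 against 123 ± 60.2 CPM, and the groups overlapped for all 3 of these genes. These 56 transcripts had the highest value in knockout library 18 or wild-type library 17 together with the lowest in wild-type library 13 or knockout library 16 in 62.5% of cases, against 96.8% of the 31 members. The same share was 100% for the oligodendrocyte markers, 83.3% for the neuron markers and 4.17% for the astrocyte markers.

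**Figure D5:**
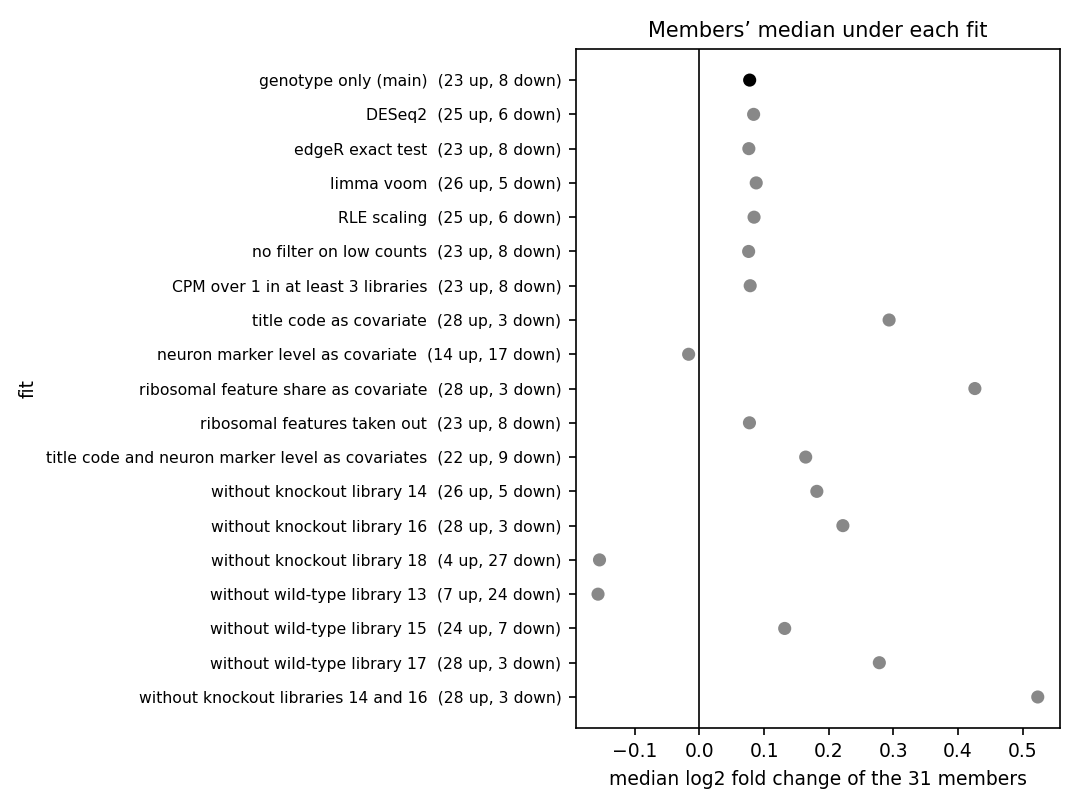
Median log2 fold change of the 31 members (horizontal axis) under the fit on genotype only (black) and 18 alternative fits (grey), with the number of members above and below 0 beside each name. The median is negative without knockout library 18 or wild-type library 13 and with the neuron marker level as a covariate, and largest, at 0.52, without knockout libraries 14 and 16.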

How the data were processed

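Sequencing of ribosome-bound RNA used a stranded kit with ribosomal RNA removal and paired reads, per the labels' protocols, and 6 libraries were analysed. The authors deposited RSEM expected counts for 12 entries, per the file headers, without scaling. The submitters' processing notes name STAR 2.5.3a, RSEM 1.3.0, edgeR and the mm10 build, and for annotation release and strand setting the sources used here give nothing. The authors also deposited a comparison table with log2 fold changes, mean log2 CPM, p-values and a scaled signal per entry, of which p-values of the members are quoted. For its test the sources used here name no method.

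Typically, 2 entries of the same library differed by about the sampling noise (median chi-square per feature 0.467 to 0.495, against 2.93 to 18.8 between libraries of a group), but the mean chi-square of 1.17 to 2.33 shows that some features differed by more. They were summed, rounded and counted as 1 sample. Genes were filtered with filterByExpr, scaled by TMM and tested with edgeR 4.0.16 (quasi-likelihood, 4 residual degrees of freedom) in R 4.3.3, with Benjamini-Hochberg adjustment over all genes and a threshold of 0.05. Log2 CPM used a prior count of 2. Alternatives used DESeq2 1.42.0, edgeR's exact test, limma 3.58.1 voom, other scaling, filters, covariates and left-out libraries. Scripts were tested on simulated counts drawn without a shared order of libraries. There the quasi-likelihood test recovered 40% of 2-fold and 97% of 4-fold changes, with 11 false calls in 14791 genes. False calls numbered 35 with DESeq2, 40 with edgeR's exact test and 7 with limma voom. These simulated shares do not give the recovery in the 6 libraries themselves. In those, edgeR's quasi-likelihood test did not call Fmr1 at a log2 fold change of -3.53 (adjusted p = 0.29983).

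The members and lists were chosen with earlier results of these data known. All members are named, with fold change, SE and 95% interval for the 8 of smallest p and per-library values for paralog pairs; of the other transcripts, the 3 of smallest p in each direction were to be named, and some of these are not reported here. The gene-span description was chosen after the values were seen and replaces classes by protein length, for which protein sequences were not used here. Totals were 10953958 to 22397202 counts per library, or 6012112 to 21503369 without the ribosomal RNA features.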

Additional observations from a re-analysis of the deposited data

How the results depend on the processing

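In edgeR's quasi-likelihood test with genotype as the 1 term 0 of 14990 genes were called, with 265 at an unadjusted p under 0.05. DESeq2 called 8, edgeR's exact test 9, the fit without a filter on low counts 6 and the fit with the ribosomal feature share as a covariate 1, and between 0 and 2 genes were called when a single library was left out. No member was called in any of the 18 alternatives run (lowest adjusted p of a member 0.860, with the ribosomal feature share as a covariate; 0 members at an unadjusted p under 0.05 with genotype as the 1 term). Across these fits the median log2 fold change of the members ran from -0.16 to 0.28 with a library left out, was 0.43 with the ribosomal feature share and 0.16 with title code and neuron marker level as covariates, and moved to 0.52 without knockout libraries 14 and 16, which leaves 1 knockout library assumed to vary like the others. For the other 56 transcripts it moved to 0.32 there, and ran from -0.12 to 0.15 with a library left out. Signs of single members were unstable: 27 of 31 changed sign in at least 1 alternative, 19 of them without knockout library 18 and 16 without wild-type library 13, and 9 with the neuron marker level as a covariate. Because these members were not called in any fit, their changes of sign are given as counts. Members with a mean over 10 CPM were all 31, so that alternative left the median at 0.078. No paired analysis was run because the library titles name no pairs. The title code, which occurs in both genotypes, was used as a covariate only. Classes by protein length were not run.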
